A study of Drosophila melanogaster with 4 samples.

Results

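The genes described here encode enzymes of the mitochondrial tricarboxylic acid (citrate) cycle of Drosophila melanogaster. They were chosen by name, with earlier results of these data known. The rule took probe sets whose platform gene symbol was 1 of 10 listed genes, which are kdn, mAcon1, Idh3a, Idh3b, Scsalpha1, SdhA, SdhB, SdhC, SdhD and Mdh2. A probe set of their own was found for 7 of the 10, with 1 probe set each, out of 11982 genes named on the array. For kdn (citrate synthase), SdhA (the flavoprotein subunit of succinate dehydrogenase) and Mdh2 (mitochondrial malate dehydrogenase) no probe set was annotated, and they were not analysed here.

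RNA from entire larvae that had grown at 25 °C to the third instar was hybridised to 1-colour Affymetrix arrays. The larvae labelled Gyc76C had the genotype C564-Gal4; UAS-Gyc76C and overexpressed a receptor guanylate cyclase, an enzyme that makes cyclic GMP, in an organ the labels name as the fat body. The larvae labelled GFP had the genotype C564-Gal4; UAS-GFP and served as controls, so that both groups carried the same driver and a UAS transgene. C564-Gal4 is known as a driver of fat body and blood cells and is not limited to one tissue, while the RNA was that of the whole animal. Each genotype had 2 arrays, called biological replicas, and the number of larvae behind each was not found in the labels. In whole larvae, more RNA per cell and more cells of a type with much of the RNA cannot be told apart.

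The citrate cycle oxidises the acetyl group of acetyl-CoA in the mitochondrial matrix and hands its electrons to the respiratory chain as NADH and, at succinate dehydrogenase, directly to ubiquinone. Acetyl-CoA comes from pyruvate, which enters through a carrier in the inner membrane and is oxidised by pyruvate dehydrogenase, or from fatty acids. In larvae the cycle also supplies citrate and amino acid precursors for growth, and muscle and other tissues with many mitochondria hold much of its RNA.

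To check the labels, Gyc76C itself was followed through its brightest probe set (shared with the symbol CG42637), which had signals of 16050 and 20993 in Gyc76C larvae, against 1047 and 928.0 in GFP larvae. It was 18.6-fold higher (limma, adjusted p = 5.79e-05). The other 2 probe sets with that annotation were dim and lower in Gyc76C larvae. One had 9.42 and 30.6 in Gyc76C larvae against 91.9 and 64.9 in GFP larvae (limma, not called, adjusted p = 0.0951), and the other, too dim to be tested, averaged 3.56 ± 1.59 in Gyc76C larvae against 15.8 ± 1.74 in GFP larvae (SD, n = 2 each). Where each lies relative to the transgene was not found in the labels. Over the 11261 probe sets tested, arrays of 1 genotype correlated at r = 0.968 (Gyc76C) and 0.966 (GFP), and arrays of different genotype at 0.88 to 0.91. A probe set is called here when its limma p-value, adjusted over all probe sets tested, is under 0.05. By that rule 24.6% of probe sets were called, 1271 higher and 1500 lower in Gyc76C larvae, a share of 45.9% higher among the calls and of 62.7% with each array centred on its median. The median log2 signal was lower in Gyc76C larvae by a shift of -0.16, hybridization control probe sets averaged 8.86 and 9.49 on the log2 scale in Gyc76C larvae against 9.78 and 9.82 in GFP larvae, lowest on Gyc76C replicate 1, and the ratio of 3′ to 5′ signal, a sign of RNA quality, was 3.12 and 3.61 in Gyc76C larvae against 4.04 and 4.06 in GFP larvae for eIF-4a. The part of these shifts in the results below was not tested, except that 2 other scalings were run.

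Most of the measured citrate cycle genes were higher in Gyc76C larvae. Of the 7 measured members 6 rose and 0 fell, and all 7 had a mean signal over the 4 arrays above the filter on dim probe sets. Among all 9259 genes tested, each taken by its brightest probe set, 25.7% were called and 11.6% were called higher. The members are bright, and of the 1166 genes with a mean signal at or above that of the dimmest member, 2097, a share of 27.1% was called higher. The 6 that rose did so by 1.46-fold to 2-fold, and the seventh, Scsalpha1, had a ratio of 1.02. The median log2 fold change of the 7 was 0.74, against -0.17 over all genes tested and 0.08 over the genes at least as bright. Because the members were chosen with earlier results of these data known, these counts and medians describe the members and do not test them as a set. In all 6, the lower Gyc76C array still exceeded the higher GFP array, which held for 26.7% of all genes tested. That share was not computed for the genes at least as bright as the members.

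**Figure D1:**
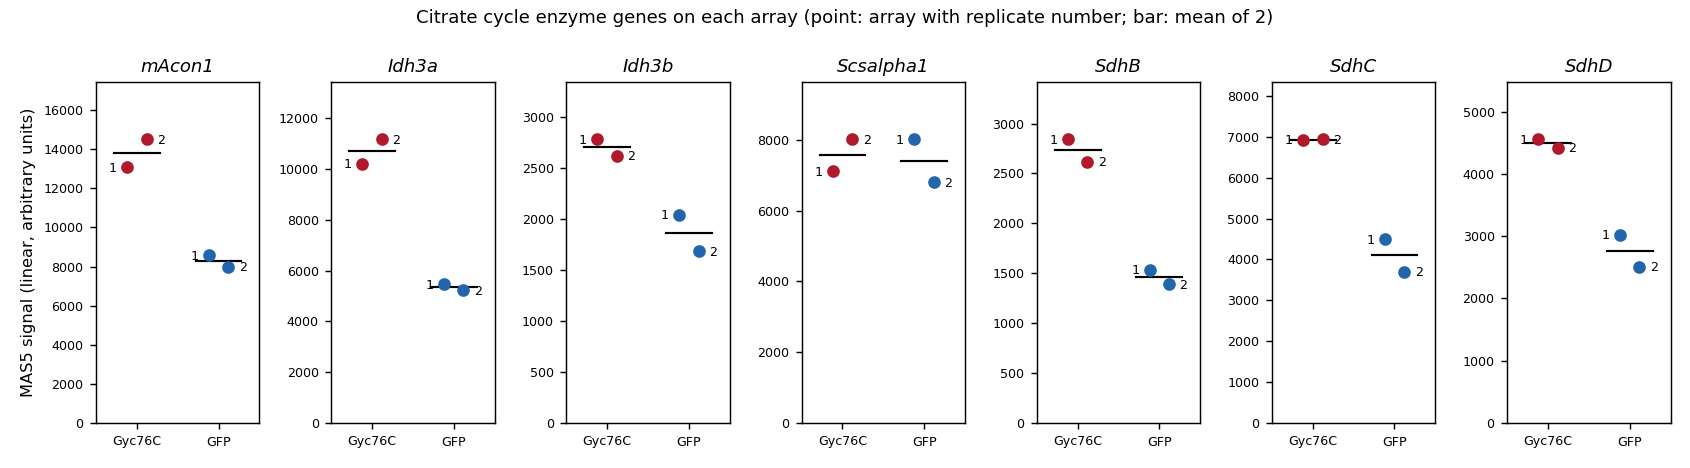
MAS5 signal (linear, arbitrary units, axes from 0) of the 7 measured citrate cycle genes on each array, with Gyc76C larvae in red and GFP larvae in blue. Points are arrays with their replicate number and bars are the means of 2 arrays. The Gyc76C arrays lie above the GFP arrays in every panel except that of Scsalpha1, where the genotypes overlap.

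Aconitase, which turns citrate into isocitrate through an iron-sulfur cluster, was represented by mAcon1. Its signals were 13070 and 14520 in Gyc76C larvae, against 8566 and 7996 in GFP larvae. Both Gyc76C arrays were high and the genotypes did not overlap. The mean was 13795 ± 1025 in Gyc76C larvae and 8281 ± 403 in GFP larvae (SD, n = 2 each), a 1.66-fold rise with a 95% interval of 1.33 to 2.08 (log2 fold change 0.74, SE 0.14, limma adjusted p = 0.0113). The call ended without a mean trend in the variance, at an adjusted p of 0.0615.

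NAD-dependent isocitrate dehydrogenase makes the first NADH of the cycle and is built of α, β and γ subunits. Idh3a, the α subunit, had signals of 10208 and 11184 in Gyc76C larvae, against 5471 and 5219 in GFP larvae. The gap between the genotypes was far wider than the gap between arrays of 1 genotype, which was 0.13 (Gyc76C) and 0.07 (GFP) on the log2 scale. Idh3a rose 2-fold (log2 fold change 1.00, SE 0.13, 95% interval of the fold 1.61 to 2.48, adjusted p = 0.00363), the highest value of the 7 members, and this call was kept under each of the 13 alternatives.

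Idh3b, the β subunit, had signals of 2784 and 2621 in Gyc76C larvae, against 2042 and 1686 in GFP larvae. The GFP arrays lay 0.28 apart on the log2 scale and the Gyc76C arrays 0.09 apart, without overlap. Idh3b rose 1.46-fold (log2 fold change 0.54, SE 0.14, 95% interval of the fold 1.15 to 1.85, adjusted p = 0.0382), the smallest rise among the 6. This call was the least firm, since it ended without Gyc76C replicate 1 (adjusted p = 0.234), without Gyc76C replicate 2 (0.13), without GFP replicate 2 (0.0525), after quantile normalization (0.0517) and without the mean trend (0.116).

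The γ subunit Idh3g is not on the list of 10 and was taken from the wider list of citrate cycle genes. It had signals of 3306 and 3482 in Gyc76C larvae, against 1974 and 1663 in GFP larvae, and rose 1.87-fold (log2 fold change 0.91, SE 0.14, with adjusted p = 0.00637). All 3 subunits of the enzyme thus rose, with log2 fold changes that spanned 0.46. The intervals of the lowest and the highest, Idh3b and Idh3a, overlapped, and the difference between subunits was not tested.

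Succinyl-CoA synthetase makes ATP or GTP directly in the cycle, and Scsalpha1 encodes the α subunit that pairs with either of the β subunits. Scsalpha1 had signals of 7111 and 8022 in Gyc76C larvae, against 8013 and 6800 in GFP larvae. The genotypes overlapped, and their higher arrays were nearly equal. The log2 fold change was 0.03 (SE 0.15, with adjusted p = 0.89), with a 95% interval of the fold from 0.802 to 1.31. A rise as large as the 1.46-fold of Idh3b lies outside that interval, but the interval of Idh3b, 1.15 to 1.85, overlaps it. The difference between Scsalpha1 and Idh3b was not tested. The sign of the Scsalpha1 log2 fold change was not stable. It was -0.09 after quantile normalization or without GFP replicate 2, and -0.05 without Gyc76C replicate 2, against 0.19 (SE 0.16) with centred arrays.

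Of the β subunits, ScsbetaA, which gives the ATP-forming enzyme, rose 1.55-fold, with signals of 5086 and 5088 in Gyc76C larvae against 3363 and 3192 in GFP larvae (log2 fold change 0.63, SE 0.12, with adjusted p = 0.0131). That call ended when either Gyc76C array was left out (adjusted p = 0.1 for replicate 1 and 0.075 for replicate 2) and when the mean trend was (0.0692). ScsbetaG, which gives the GTP-forming enzyme and is named here after its values were seen, was not called. Its brightest probe set had a log2 fold change of 0.12 (SE 0.14, with adjusted p = 0.543), and another bright one had -0.29 (SE 0.13), so its probe sets differed in sign.

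Succinate dehydrogenase is both an enzyme of the cycle and complex II of the respiratory chain. It oxidises succinate on a flavoprotein, passes the electrons along the iron-sulfur centres of SdhB, and delivers them to ubiquinone in the membrane anchor made of SdhC and SdhD. SdhB had signals of 2845 and 2620 in Gyc76C larvae, against 1535 and 1389 in GFP larvae. Neither Gyc76C array came near the GFP arrays, and the rise was 1.87-fold (log2 fold change 0.90, SE 0.13, 95% interval of the fold 1.5 to 2.33, adjusted p = 0.00536). SdhC had signals of 6927 and 6948 in Gyc76C larvae, against 4496 and 3700 in GFP larvae. Its Gyc76C arrays were nearly equal while its GFP arrays lay 0.28 apart on the log2 scale, and it rose 1.7-fold (log2 fold change 0.77, SE 0.14, interval 1.34 to 2.16, adjusted p = 0.012). SdhD had signals of 4558 and 4422 in Gyc76C larvae, against 3018 and 2508 in GFP larvae. It too was high on both Gyc76C arrays, and rose 1.63-fold (log2 fold change 0.71, SE 0.14, interval 1.29 to 2.06, adjusted p = 0.0151).

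The 3 measured subunits of complex II thus rose by similar amounts, with log2 fold changes from 0.71 to 0.90, and the 3 intervals overlapped. Without Gyc76C replicate 1 none of the 3 was called, with adjusted p of 0.0558 for SdhB, 0.0642 for SdhC and 0.0996 for SdhD, although the log2 fold changes were then 0.84, 0.77 and 0.68. SdhD also lost its call without Gyc76C replicate 2 (adjusted p = 0.0608), and SdhC and SdhD lost theirs without the mean trend (0.066 and 0.0729). Genes of succinate dehydrogenase assembly factors were not called. Of the 2 measured, Sdhaf3 had a log2 fold change of 0.18 (SE 0.20, with adjusted p = 0.536) and Sirup of -0.40 (SE 0.26, with adjusted p = 0.283), and limma gave 0 at an unadjusted p under 0.05. Without GFP replicate 2 Sirup was called lower, at -0.73 with an adjusted p of 0.0335.

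Within the GFP larvae the replicate 1 array was the higher one for 7 of 7 members, and for 50.7% of all genes tested. The share among genes as bright was not computed. This order was not particular to the members. Summed GFP signals were 118034 and 103930 for complex I, 107348 and 86276 for glycolysis, and 154298 and 117409 for muscle markers. The other order was seen for mitochondrial DNA upkeep and transcription (2398 and 2735) and for nerve and disc markers. The summed signal of the 7 members was 47503 and 50337 in Gyc76C larvae, against 33143 and 29300 in GFP larvae. Without Gyc76C replicate 1 the number of members called fell to 2, Idh3a and mAcon1, and without the mean trend in the variance to 2, Idh3a and SdhB. Without Gyc76C replicate 2 it was 4, and without GFP replicate 2 it was 5. In each of these fits the 6 genes kept a positive log2 fold change.

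**Figure D2:**
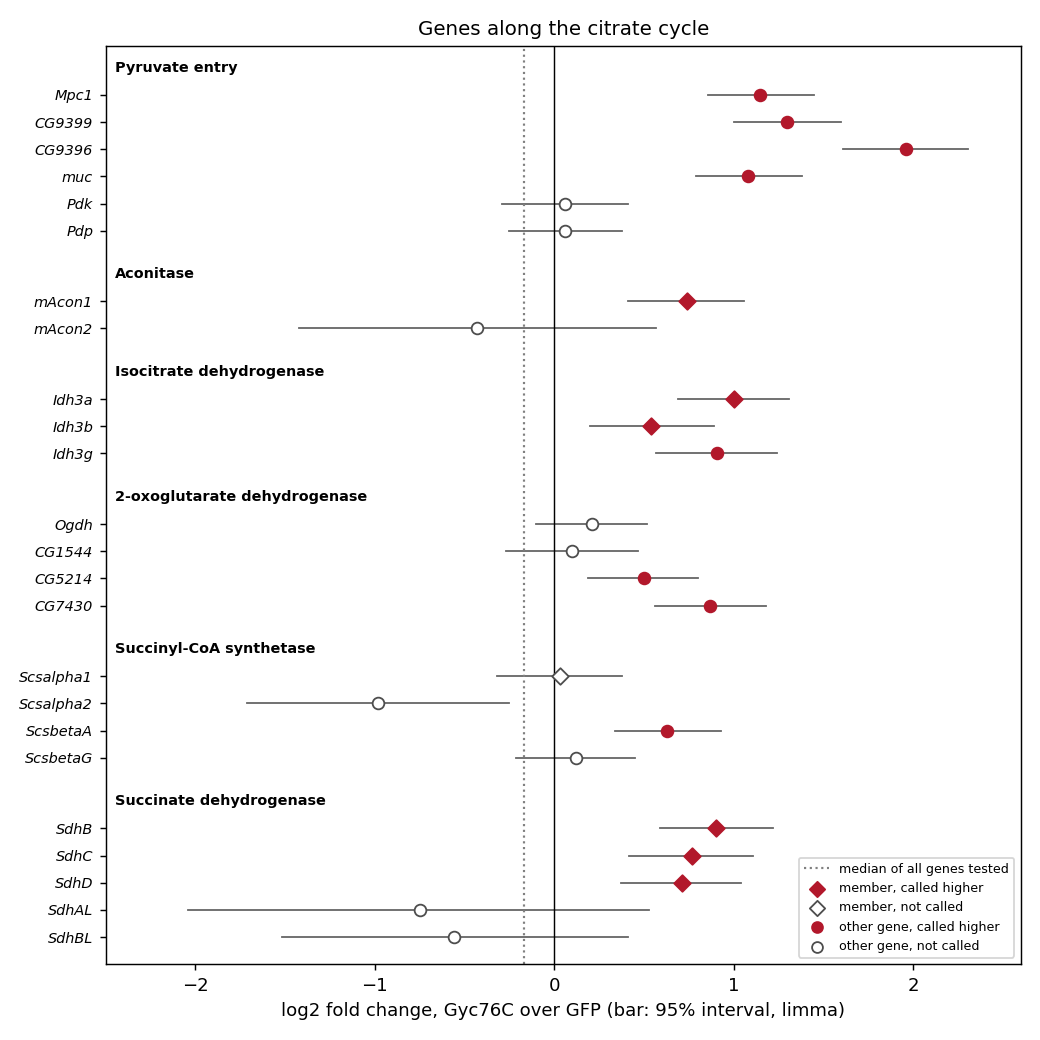
Log2 fold change, Gyc76C over GFP, of tested genes along pyruvate entry and the citrate cycle, with the brightest probe set of each gene and 95% intervals from limma. Diamonds are the 7 members and circles other genes, and filled symbols were called higher. The dotted line is the median of all genes tested, -0.17. The isocitrate dehydrogenase subunits and SdhB, SdhC and SdhD lie to its right, and the related copies mAcon2, Scsalpha2, SdhAL and SdhBL to its left. Scsalpha1 and Ogdh sit near 0. The related copies CG14740, CG10748 and CG10749, which were tested and lie below 0, are not drawn.

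The wider list of citrate cycle genes, beyond the 10, held 17 genes with a probe set, of which 14 were bright enough to be tested. Of these 4 rose, 0 fell and 10 were not called, and the median log2 fold change was -0.16. The sign of that median was not stable, and it was 0.35 over the 8 genes left by a filter at the 60th percentile, -0.43 with no filter and 0.07 without Gyc76C replicate 1. The count of 4 was 2 without either Gyc76C array and 2 without the mean trend, while 3 fell without Gyc76C replicate 2, 2 without GFP replicate 2 and 3 with the replicate block. Besides Idh3g and ScsbetaA, the genes that rose encode parts of the 2-oxoglutarate dehydrogenase complex. CG7430, the dihydrolipoyl dehydrogenase that this complex shares with pyruvate dehydrogenase, had signals of 6273 and 5776 in Gyc76C larvae, against 3458 and 3156 in GFP larvae (log2 fold change 0.87, SE 0.13, with adjusted p = 0.00581). CG5214, the succinyl-transferring component, rose less (log2 fold change 0.50, SE 0.13, with adjusted p = 0.0335), and its call ended when either Gyc76C array was left out (0.212 for replicate 1 and 0.149 for replicate 2) or when the mean trend was (0.109). Ogdh, the component that decarboxylates 2-oxoglutarate, is named after its values were seen. It had 5062 and 4883 in Gyc76C larvae, against 4534 and 4059 in GFP larvae, and was not called (log2 fold change 0.21, SE 0.13, with adjusted p = 0.265). The fumarase copies Fum2, Fum3 and Fum4 were too dim to be tested, and Fum1 was not analysed here.

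Most of the measured genes that bring pyruvate into the cycle were higher in Gyc76C larvae too. Pdha and Pdhb of pyruvate dehydrogenase had no probe set of their own and were not analysed here. Of 6 measured, 4 rose, 0 fell and 2 were not called, and their median log2 fold change was 1.12. The share called higher was 66.7%, against 11.6% of all genes tested and 27.1% of genes at least as bright as the dimmest member. Mpc1 and CG9399, which encode the mitochondrial pyruvate carrier, rose 2.23-fold and 2.46-fold. Mpc1 had 4813 and 4533 in Gyc76C larvae, against 2142 and 2054 in GFP larvae (log2 fold change 1.15, SE 0.12, with adjusted p = 0.00188). The related gene CG9396 had 1286 and 1243 in Gyc76C larvae, against 344.5 and 307.6 in GFP larvae, a rise of 3.88-fold (log2 fold change 1.96, SE 0.15, with adjusted p = 0.000516). The acetyl-transferring component of pyruvate dehydrogenase, muc, rose 2.12-fold, with 10167 and 10457 in Gyc76C larvae against 4828 and 4904 in GFP larvae (adjusted p = 0.00231). These 4 calls held under all 13 alternatives. Pdk and Pdp, the kinase and phosphatase that switch pyruvate dehydrogenase off and on, both had a log2 fold change of 0.06 and were not called (adjusted p = 0.786 and 0.76). They are named after their values were seen. Whether the pyruvate genes differ from the members was not tested.

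Reactions that feed the cycle, drain it or shuttle its reducing power moved in both directions. Of 13 tested genes 4 rose, 2 fell and 7 were not called, with a median log2 fold change of 0.44. The share called higher was 30.8%, against 11.6% of all genes tested and 27.1% of genes at least as bright as the dimmest member. Of all genes tested 14% were called lower. Men, the NADP-dependent malic enzyme, rose 2.27-fold, with 7208 and 6604 in Gyc76C larvae against 3295 and 2813 in GFP larvae (log2 fold change 1.18, SE 0.14, with adjusted p = 0.00263). The aspartate-glutamate carrier gene aralar1 rose 1.73-fold (log2 fold change 0.79, adjusted p = 0.0216). Its call ended without Gyc76C replicate 1 (0.64, adjusted p = 0.159) and without the mean trend (adjusted p = 0.0852). The other 2 that rose, named after their values were seen, were the aspartate aminotransferase gene Got2 (log2 fold change 0.57) and Irp-1B (0.61). Neither of these 2 was called without the mean trend. Irp-1A and Irp-1B belong to the family of cytosolic aconitases and iron regulatory proteins. Irp-1A fell, with 543.0 and 503.6 in Gyc76C larvae against 983.7 and 1581 in GFP larvae (log2 fold change -1.25, SE 0.23, with adjusted p = 0.0115, and 0.0632 without the mean trend), the opposite direction to Irp-1B and to mAcon1. Pepck2 also fell (log2 fold change -0.64, adjusted p = 0.0339), but not with centred arrays (-0.48, adjusted p = 0.0806), without either Gyc76C array (0.0555 and 0.178), without GFP replicate 2 (0.0526) or without the mean trend (0.11). Over the list, 8 rose without GFP replicate 1, and the number was 1 when Gyc76C replicate 1 was left out, 2 when Gyc76C replicate 2 was, and 1 when the mean trend was.

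Among lists that take up the electrons of the cycle, complex I had 21 of 26 genes that rose and 0 that fell, with a median log2 fold change of 0.73, close to the 0.74 of the members. ND-SGDH, ND-18 and ND-B14 of complex I rose 2.69-fold, 2.19-fold and 2.06-fold. Leaving out Gyc76C replicate 1 gave 7, leaving out Gyc76C replicate 2 gave 12, and dropping the mean trend gave 6, while the list's median stayed between 0.62 and 0.88 in every fit. Complex III had 2 of 8 that rose (median 0.35), complex IV 1 of 9 (0.37) and complex V 4 of 13 (0.43), with 0 that fell in any of them. After quantile normalization these counts were 3, 5 and 9, and without the mean trend 0, 0 and 0. With the reported settings the shares called higher were 25%, 11.1% and 30.8%, against 11.6% of all genes tested. Among genes at least as bright as the dimmest member the share was 27.1%. In complexes III, IV and V the lower Gyc76C signal exceeded the higher GFP signal for 6, 8 and 10 genes. The higher Gyc76C signal was under the lower GFP signal for 2, 1 and 0. The lowest log2 fold changes were -1.12, -1.51 and -0.34. Fatty acid oxidation, the other source of acetyl-CoA, had 0 of 7 that rose and 1 that fell, with a median of 0.23. The gene that fell was whd, the carnitine palmitoyltransferase that admits fatty acids to mitochondria (log2 fold change -0.75, SE 0.14, with adjusted p = 0.0113, and 0.109 without Gyc76C replicate 1 and 0.064 without the mean trend). Without GFP replicate 1, 2 genes of that list rose, and without GFP replicate 2 its median turned to -0.03. In glycolysis 4 of 11 rose, with a median of 0.41, among them the hexokinase genes Hex-C and Hex-A at 2.11 and 1.07, and 6 of 11 rose without GFP replicate 1, with a median of 0.62, against 0.22 without GFP replicate 2. Of 9 genes of mitochondrial DNA upkeep and transcription 2 rose and 1 fell (median 0.53). The 2 that rose were bsf (log2 fold change 1.12) and mtSSB (0.53), and ewg, the fly relative of a nuclear respiratory factor, was the one that fell (-1.02). None of these 3 was called without Gyc76C replicate 1 or without the mean trend, and mtSSB and ewg were not called with no filter (adjusted p = 0.0502 and 0.0619) or without Gyc76C replicate 2 (0.246 and 0.0622). The ewg call also ended with centred arrays (0.0562), after quantile normalization (0.0674) and without GFP replicate 2 (0.157).

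**Figure D3:**
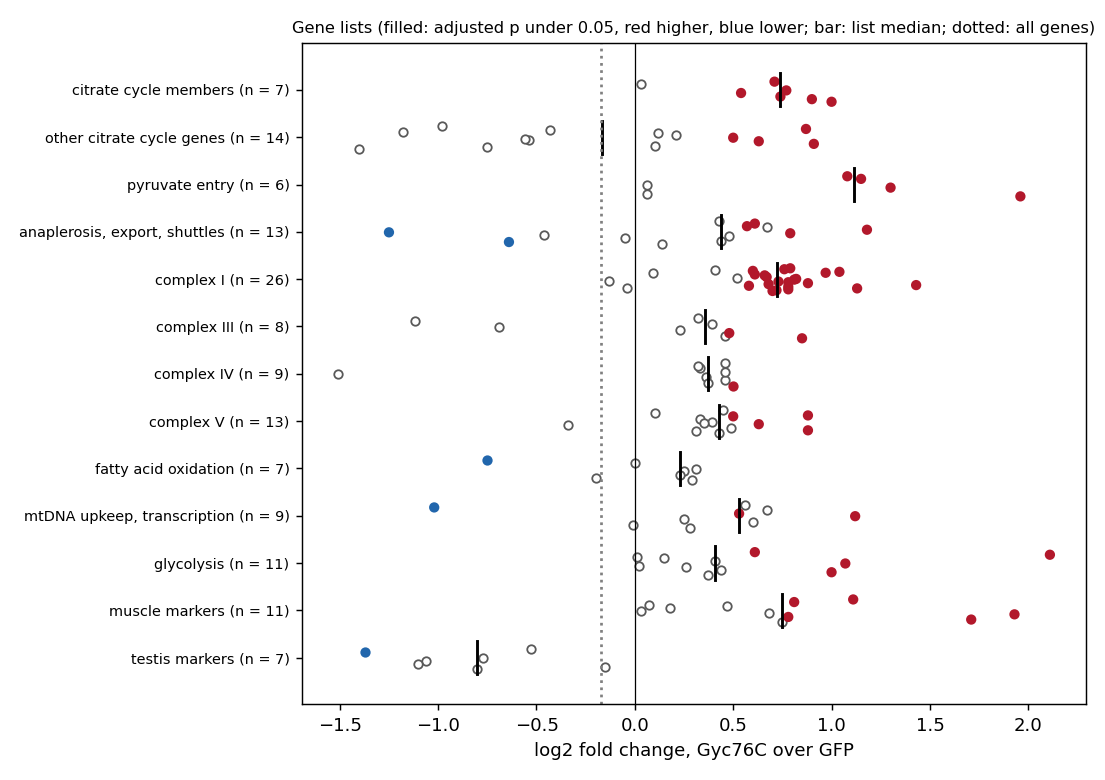
Log2 fold change, Gyc76C over GFP, of every tested gene in the citrate cycle, related pathways and the muscle and testis marker lists, by brightest probe set. Filled points were called (red higher, blue lower), bars are list medians and the dotted line is the median of all genes tested. The cycle members have a median of 0.74 and complex I of 0.73, while complexes III to V lie between 0.35 and 0.43.

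Muscle is rich in mitochondria. Of 11 tested muscle markers 5 rose, 0 fell and 6 were not called. Their median log2 fold change was 0.75, or 0.46 without GFP replicate 2, and their summed signal was 175013 and 203269 in Gyc76C larvae, against 154298 and 117409 in GFP larvae. Among them sls (titin) and Mlc2 rose 3.8-fold and 3.26-fold, whereas Mlc1 and Mlp60A had log2 fold changes of 0.07 and 0.03. Muscle marker calls that were higher numbered 8 with centred arrays and 2 without the mean trend. Fat body markers gave 3 higher and 2 lower of 11, with a median of 0.11 and summed signals of 142760 and 162907 in Gyc76C larvae against 172790 and 159907 in GFP larvae. Salivary gland markers fell in 10 of 14, with summed signals of 24663 and 21721 in Gyc76C larvae against 211068 and 195268 in GFP larvae. Midgut markers gave 4 higher and 1 lower of 10 (median 0.48), blood cell markers 2 higher and 3 lower of 8 (-0.01), and Malpighian tubule markers 1 higher and 2 lower of 5 (-0.40). Markers of nerve and of discs and dividing cells had 0 of 5 and 0 of 9 called by limma, with 1 and 2 at an unadjusted p under 0.05, at medians of 0.12 and -0.23. The shares called higher were 45.5% for muscle, 27.3% for fat body, 40% for midgut, 25% for blood cell and 20% for Malpighian tubule markers. Of all genes tested 11.6% were called higher and 14% lower. Among genes at least as bright as the dimmest citrate cycle member 27.1% were called higher. The part of muscle or of any other tissue in the rise of the citrate cycle genes was not tested.

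**Figure D4:**
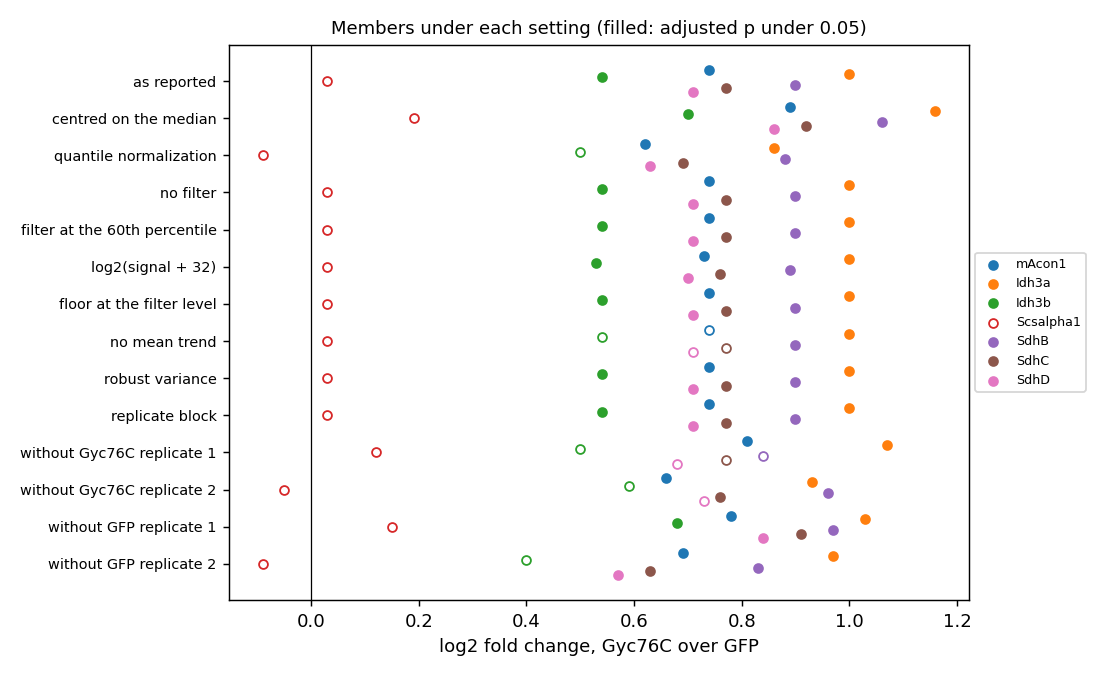
Log2 fold change, Gyc76C over GFP, of the 7 members as reported and under the 13 alternative settings, with filled points where the adjusted p was under 0.05. Idh3a is filled in every row and Scsalpha1 in none, and the other 5 lie above 0 throughout and are open in at least 1 row.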

How the data were processed

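Linear intensity values per probe set were deposited by the authors, who made them with MAS5 per the submitters' processing notes. The version and the build behind the annotation are not given in the sources used here. They ran from 0.358 to 48176 over the 4 arrays, with a common trimmed mean, so the authors' scaling was kept. MAS5 gives dim probe sets a signal too, which scatters on the log2 scale. All columns of values belonged to a sample.

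Of 18952 probe sets 183 were controls and left out. Of the rest 13647 had 1 gene in the platform annotation, 402 several and 4720 none. Probe sets with a mean signal at or above the 40th percentile (46.3) were tested: 11261. Genotypes were compared on log2 signals, without an offset, by limma (version 3.58.1, R 4.3.3) with the prior variance following the mean signal (the mean trend), two-sided, with Benjamini-Hochberg adjustment over all probe sets tested and with 2 residual and 4.64 prior degrees of freedom. The script was tested on simulated data. Folds are ratios of geometric means. The brightest probe set stood for a gene, and each member had only 1.

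Members and lists were chosen with earlier results of these data known. All members were named, and up to 4 called genes of each pathway list with the largest changes, or 2 where none was called. The labels tie no replicate number to a shared batch. The p-values rest on the spread between these arrays and, through the prior variance, on that of other probe sets of like signal. The number of arrays limits the precision. Alternatives varied the scaling, filter, offset, floor, variance model, replicate block and arrays left out.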

Additional observations from a re-analysis of the deposited data

How the results depend on the processing

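The number of probe sets called was 2771, and it was 1241 when the variance model had no mean trend and between 1204 and 3350 when 1 array was left out. The number of members called was 6, and it was 2 without the mean trend and between 2 and 6 when 1 array was left out. The median log2 fold change of the members was 0.74, 0.89 with arrays centred on their median, and between 0.63 and 0.84 when 1 array was left out. The value of Scsalpha1, never called, had the other sign after quantile normalization (-0.09), without Gyc76C replicate 2 (-0.05) and without GFP replicate 2 (-0.09), and ran up to 0.15 when 1 array was left out. No member called here changed sign, and Idh3a was called throughout. The labels do not say that a replicate number marks a shared batch, and deviations of arrays with the same number correlated at r = 0.044. With the replicate block 3101 probe sets and 6 members were called, and the members' median was 0.74. Leaving out an array leaves 1 array in a genotype, which is then assumed to vary like the other pair. Filters, offset, floor and robust variance left 6 members called. Averaging over probe sets changed nothing because each member had 1.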

Other observations

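Among the other citrate cycle genes, 7 related copies of cycle enzymes were dim in whole larvae. These 7 genes, grouped after their values were seen, are mAcon2, CG14740, Scsalpha2, SdhAL, SdhBL, CG10748 and CG10749, with signals between 29.8 and 343.0 on single arrays. All 7 had log2 fold changes below 0, from -0.43 for mAcon2 to -1.40 for CG10748. That shared sign is not a result, because the group was formed after these values were seen. The filter on mean signal can also pass a dim gene through its GFP arrays, and the dim Fum2, Fum3 and Fum4 did not pass it. Of the 7 copies 0 were called by limma, with 3 at an unadjusted p under 0.05. A difference from the members was not tested. CG1544, an Ogdh-related gene left outside the group, was brighter, with 594.3 and 520.6 in Gyc76C larvae against 535.3 and 500.7 in GFP larvae, and had a log2 fold change of 0.10 (SE 0.16). Scsalpha2, the copy of Scsalpha1, had 126.8 and 134.6 in Gyc76C larvae, against 343.0 and 194.0 in GFP larvae (log2 fold change -0.98, SE 0.30, adjusted p = 0.0591). Its value depends on the GFP arrays. With GFP replicate 2 left out it was -1.39 (adjusted p = 0.00976), and with GFP replicate 1 left out it was -0.57 (0.22). It was also called with the replicate block (0.0398).

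The summed signal of the 7 copies was 438.1 and 823.6 in Gyc76C larvae, against 1234 and 976.0 in GFP larvae, and the Gyc76C replicate 1 array was the lower of its pair for 7 of 7, and for 52.7% of all genes tested. Hybridization controls were lowest on that array too, at 8.86 against 9.49 on Gyc76C replicate 2 (mean log2 signal). Poly-A controls were nearly equal on these arrays, at 9.38 and 9.42. Testis markers had the same order of arrays as the copies, with summed signals of 1087 and 2124 in Gyc76C larvae against 3607 and 3015 in GFP larvae. This order was not particular to testis. It was also that of the summed signals of the citrate cycle members (47503 and 50337 against 33143 and 29300), complex I, glycolysis and muscle markers. Pyruvate entry and salivary gland markers had Gyc76C replicate 1 as the higher array. Of 7 tested testis markers 1 was called, a share of 14.3% against 25.7% of all genes tested. It was betaTub85D, a testis tubulin, which had -1.37 on the log2 scale (limma adjusted p = 0.012, or 0.0647 when the mean trend was dropped). The list's median was -0.80. Leaving out 1 array moved both values. The number called was 3 and the median -1.41 without Gyc76C replicate 2, 3 and -1.13 without GFP replicate 2, 1 and -0.44 without Gyc76C replicate 1, and 1 and -0.54 without GFP replicate 1. The part of testis RNA, or of that array, in the values of the copies was not tested.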
